A study of Mus musculus with 10 samples.

Results

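The mouse major histocompatibility complex (MHC) genes and the genes that load, regulate and accompany their products were examined in spleens of DUSP6 KO and WT mice. The members were the protein-coding genes of the deposited table whose names start with H2-, which gave 34 genes, together with Cd74, Ciita, B2m, Tap1, Tap2, Tapbp and Nlrc5, in all 41 of 54532 genes. Of these, 29 belong to class I, 11 to class II, and 1, H2-Ke6, carries the prefix only by its place in the region and encodes a steroid dehydrogenase. A total of 37 members lie on chromosome 17 and the other 4 (B2m, Nlrc5, Ciita and Cd74) on other chromosomes.

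Spleens came from 5 DUSP6 KO mice, which carry the Dusp6tm1Jmol allele and are labelled as a knockdown in the sample records, and from 5 WT mice of the C57BL/6J strain, and each mouse gave 1 poly-A RNA library. All 10 mice had been injected with KRN serum, which carries antibodies that cause arthritis (KRN serum-induced arthritis, KSIA), and spleens were taken on day 9, so an uninjected group is absent from the comparison. Both lines were purchased, and whether the groups were littermates is not stated. The paper does not state the strain background of the DUSP6 KO line. Any other difference between the lines therefore cannot be told apart from that of the Dusp6 genotype. Libraries held 14990474 to 19822673 reads, the targeted gene Dusp6 lay at 0.308 to 0.624 FPKM in the DUSP6 KO libraries and at 16.6 to 24.0 FPKM in those of WT, and Xist (at most 0.0206 FPKM) and Ddx3y (at least 14.4 FPKM) showed the male pattern in all 10. The B cell gene Cd79b (210 to 521 FPKM) and the T cell gene Cd3e (6.34 to 15.1 FPKM), which mark the main lymphocytes of the spleen, were present in all 10 libraries. Levels are in FPKM, a count of fragments divided by the gene's length and by the library's size, and so can be compared between genes.

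MHC class I molecules are found on nearly all nucleated cells and consist of a heavy chain and beta-2 microglobulin (B2m). They present peptides that the proteasome cuts in the cytosol, that the transporter Tap1-Tap2 carries into the endoplasmic reticulum and that tapasin (Tapbp) helps to load, to CD8 T cells, and Nlrc5 is the transactivator of their genes. MHC class II molecules are restricted mostly to B cells, dendritic cells and macrophages, which are abundant in the spleen. Their alpha and beta chains assemble on the invariant chain Cd74, exchange its remnant for peptide with the help of H2-DM, are held back by H2-O, and depend on the transactivator Ciita.

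The proximal promoters of 5 members are shown because Nlrc5 and Ciita act through them and because the class I heavy chain genes H2-Q6 and H2-Q7 and the class II accessory gene H2-DMb1 had the lowest levels relative to WT in their classes, while H2-K1 and H2-DMb2 are close relatives of these. Each run is the 200 bases before the RefSeq start site (GRCm38.p6), read 5′ to 3′ on the gene's strand: chr17:35424650-35424849 (+) for H2-Q6, chr17:35438955-35439154 (+) for H2-Q7, chr17:34000348-34000547 (-) for H2-K1, chr17:34152991-34153190 (+) for H2-DMb1 and chr17:34145049-34145248 (+) for H2-DMb2. Capitals mark matches on either strand to CCAAT (the CCAAT box), GAANNGAAA (an interferon response sequence), GGGNNTTCC (an NF-kappaB type site) and AACNGATG (part of the X box).
H2-Q6: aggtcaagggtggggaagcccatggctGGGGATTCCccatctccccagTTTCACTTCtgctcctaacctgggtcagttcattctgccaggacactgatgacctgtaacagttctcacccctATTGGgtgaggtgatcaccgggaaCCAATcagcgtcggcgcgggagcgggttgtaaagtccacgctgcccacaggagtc
H2-Q7: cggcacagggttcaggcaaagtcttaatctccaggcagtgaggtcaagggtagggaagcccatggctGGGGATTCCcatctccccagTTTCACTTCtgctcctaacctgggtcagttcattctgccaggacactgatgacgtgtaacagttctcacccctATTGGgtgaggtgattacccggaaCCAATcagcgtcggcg
H2-K1: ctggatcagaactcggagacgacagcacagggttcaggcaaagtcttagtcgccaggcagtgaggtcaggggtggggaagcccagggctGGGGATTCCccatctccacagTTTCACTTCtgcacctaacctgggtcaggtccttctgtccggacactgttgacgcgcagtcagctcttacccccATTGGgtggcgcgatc
H2-DMb1: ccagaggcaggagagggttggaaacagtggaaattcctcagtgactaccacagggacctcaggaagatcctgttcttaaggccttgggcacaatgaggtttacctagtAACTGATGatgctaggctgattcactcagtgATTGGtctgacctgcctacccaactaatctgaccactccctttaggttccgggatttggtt
H2-DMb2: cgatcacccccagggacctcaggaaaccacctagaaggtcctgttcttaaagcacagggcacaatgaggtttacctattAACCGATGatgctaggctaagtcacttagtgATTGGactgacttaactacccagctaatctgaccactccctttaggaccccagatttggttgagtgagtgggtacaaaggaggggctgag

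The 3 class I promoters shared 1 layout, an NF-kappaB type match followed by an interferon response match and then CCAAT, and the H2-DMb pair shared the X box match followed by CCAAT. Windows of 300 bases (250 bases before and 50 after the start) were searched for members that were expressed and had a RefSeq promoter. A gene counted if any of its promoters held a match. CCAAT stood in 13 of 15 class I and 8 of 8 class II genes, against 41.0% of all genes with a promoter (32544 promoters). The interferon response sequence stood in 8 of 15 class I and 0 of 8 class II genes (8.74% of all genes). The NF-kappaB type site stood in 6 of 15 and 2 of 8 (6.62%). AACNGATG stood in 0 of 15 class I and 4 of 8 class II genes (2.67% of all genes). Its letters were chosen after the promoters had been seen. A looser form searched before it, AGNNACNGA, stood in 5 of 15 class I and 5 of 8 class II genes, against 19.9% of all genes. Such matches describe the letters in these windows and were not tested as binding sites.

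Of the 41 members, 31 reached a mean of 0.1 FPKM over the 10 libraries, which were all 11 class II members, 19 of 29 class I members and H2-Ke6. The class II invariant chain Cd74 ranked 4 among all protein-coding genes by mean level, B2m ranked 13, H2-Eb1 21, H2-Ab1 25, H2-Aa 29, H2-K1 46 and H2-D1 47. Members together took 1.25% to 2.18% of all reads in DUSP6 KO libraries and 1.47% to 2.59% in WT libraries. The 10 class I genes under 0.1 FPKM were H2-T3, H2-M9, H2-M10.2 and 7 genes with 0 reads in every library, namely H2-M1, H2-M11 and 5 of the H2-M10 genes, a group known from sensory neurons of the vomeronasal organ. H2-Ke6 lay at 0.153 ± 0.181 FPKM (SD, n = 5) in the DUSP6 KO group and at 0.249 ± 0.206 FPKM (SD, n = 5) in the WT group, and 92.0% of the 100-base windows of its transcript also occur in Gm20427, so its reads are uncertain.

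Nearly all expressed members were expressed in lower mean levels in DUSP6 KO, but by small amounts that mostly stayed within the spread between mice. The log2 fold change was below 0 for 18 of 19 class I members and 11 of 11 class II members, while 51.0% of all 21296 genes tested were below 0. The median log2 fold change was -0.17 in class I and -0.17 in class II. Over all genes it was -0.0046. At an unadjusted p under 0.05 in limma, 3 class I members (15.8%) and 0 class II members were lower in DUSP6 KO, against 3.03% of all genes, and 0 members were higher, against 2.62%. With Benjamini-Hochberg adjustment over all genes, 0 members passed 0.05 in limma, against 0.0704% of all genes, and limma voom on the recovered reads also gave 3 class I and 0 class II members at an unadjusted p under 0.05 and 0 after adjustment. Without WT replicate 77 these counts rose to 6 class I and 2 class II members, against 3.39% of all genes in that fit, with 0 after adjustment. No member had all DUSP6 KO values below all WT values, against 0.563% of all genes. Members share libraries and vary together, so their number does not add replicates. In RNA from whole spleen, fewer cells of a type and less RNA per cell cannot be told apart.

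**Figure D1:**
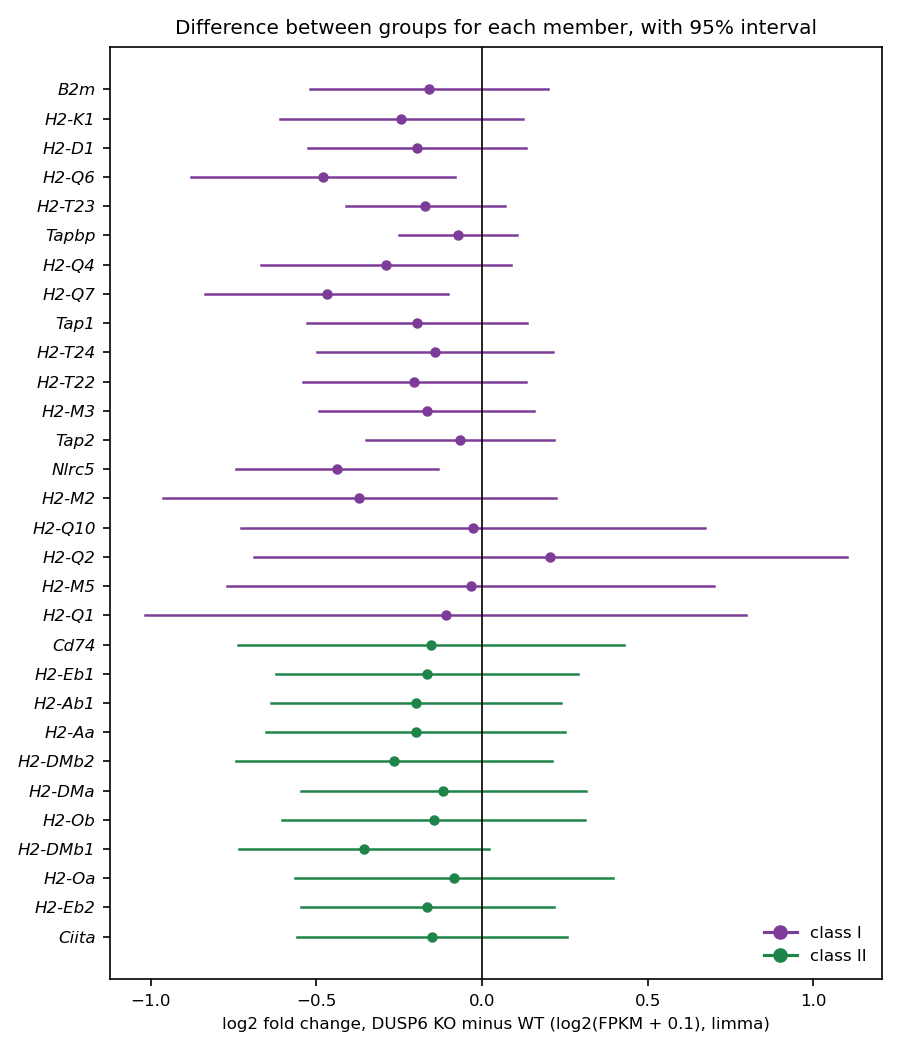
Log2 fold change (x axis, DUSP6 KO minus WT on the log2(FPKM + 0.1) scale) of the 30 expressed class I and class II members, ordered by mean FPKM within each class. Points are limma estimates and lines their 95% intervals, and only the intervals of H2-Q6, H2-Q7 and Nlrc5 leave out 0.

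The classical class I heavy chains H2-K1 and H2-D1, which present peptide to CD8 T cells, did not separate the groups. With values always given in the order of replicates 26, 21, 73, 01 and 03 for DUSP6 KO and 65, 67, 73, 77 and 83 for WT, H2-K1 was measured at 745, 639, 506, 506 and 752 FPKM in the DUSP6 KO libraries and 791, 874, 729, 572 and 739 FPKM in the WT libraries. H2-D1 was measured at 687, 624, 529, 479 and 694 FPKM in the DUSP6 KO libraries and 730, 806, 677, 547 and 682 FPKM in the WT libraries. For both genes DUSP6 KO replicates 73 and 01 were the 2 lowest libraries of all 10, WT replicate 77 was the third lowest and WT replicate 67 the highest. The log2 fold change of H2-K1 was -0.24 (95% interval -0.61 to 0.12) and that of H2-D1 was -0.20 (-0.52 to 0.13).

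The largest differences among class I heavy chains above 10 FPKM were in H2-Q6 and H2-Q7, which encode the nonclassical Qa-2 antigens. H2-Q6 (chr17:35424850-35430055 in GRCm38, plus strand) was measured at 123, 110, 79.8, 78.4 and 124 FPKM in the DUSP6 KO libraries and 152, 185, 136, 105 and 137 FPKM in the WT libraries. All 5 DUSP6 KO values were below the WT median, 4 of 5 WT values were above the highest DUSP6 KO value, and the groups overlapped through WT replicate 77. The means were 103 ± 22.6 against 143 ± 29.0 FPKM (mean ± SD of 5 libraries per group), a log2 fold change of -0.48 ± 0.18 (SE), with an unadjusted p of 0.0230 and a Benjamini-Hochberg adjusted p of 0.789 in limma. The two-sided exact permutation p was 0.0476, where 0.0079 is the smallest that 5 against 5 can give.

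H2-Q7 (chr17:35439155-35443773, plus strand) was measured at 40.3, 37.2, 27.8, 26.6 and 46.4 FPKM in the DUSP6 KO libraries and 55.4, 53.1, 48.4, 37.6 and 49.0 FPKM in the WT libraries. Again 4 of 5 WT values exceeded every DUSP6 KO value and WT replicate 77 lay among the DUSP6 KO values. The means were 35.6 ± 8.41 against 48.7 ± 6.85 FPKM (mean ± SD of 5 libraries per group), with a log2 fold change of -0.47 ± 0.17 (SE), an unadjusted p of 0.0172 and an adjusted p of 0.753 in limma, and a two-sided exact permutation p of 0.0397. The genes of this family resemble each other: 13.0% of the 100-base windows of H2-Q6 and 13.5% of those of H2-Q7 also occur in other genes, so part of their reads could have been assigned to a relative or dropped. Without DUSP6 KO replicate 73, DUSP6 KO replicate 01, WT replicate 65 or WT replicate 67 the unadjusted p of H2-Q6 lay between 0.0521 and 0.0610, whereas H2-Q7 kept an unadjusted p under 0.05 in each of the 10 fits that left out a library.

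Nlrc5, the transactivator of class I genes, had the smallest p-value of all members. It lies on chromosome 8 (chr8:94434356-94527272, plus strand) and was measured at 9.94, 10.96, 7.24, 8.75 and 10.7 FPKM in the DUSP6 KO libraries and 13.8, 14.3, 13.1, 9.82 and 13.5 FPKM in the WT libraries, from 901 to 2322 reads per library. The 4 WT replicates 65, 67, 73 and 83 were above every DUSP6 KO library, and WT replicate 77 lay between DUSP6 KO replicates 01 and 26. The means were 9.53 ± 1.54 against 12.9 ± 1.78 FPKM (mean ± SD of 5 libraries per group), with a log2 fold change of -0.44 ± 0.14 (SE), an unadjusted p of 0.0093 and an adjusted p of 0.633 in limma, and a two-sided exact permutation p of 0.0317. Nlrc5 overlaps 9330175E14Rik on the opposite strand, and whether counting used the strand is not stated.

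**Figure D2:**
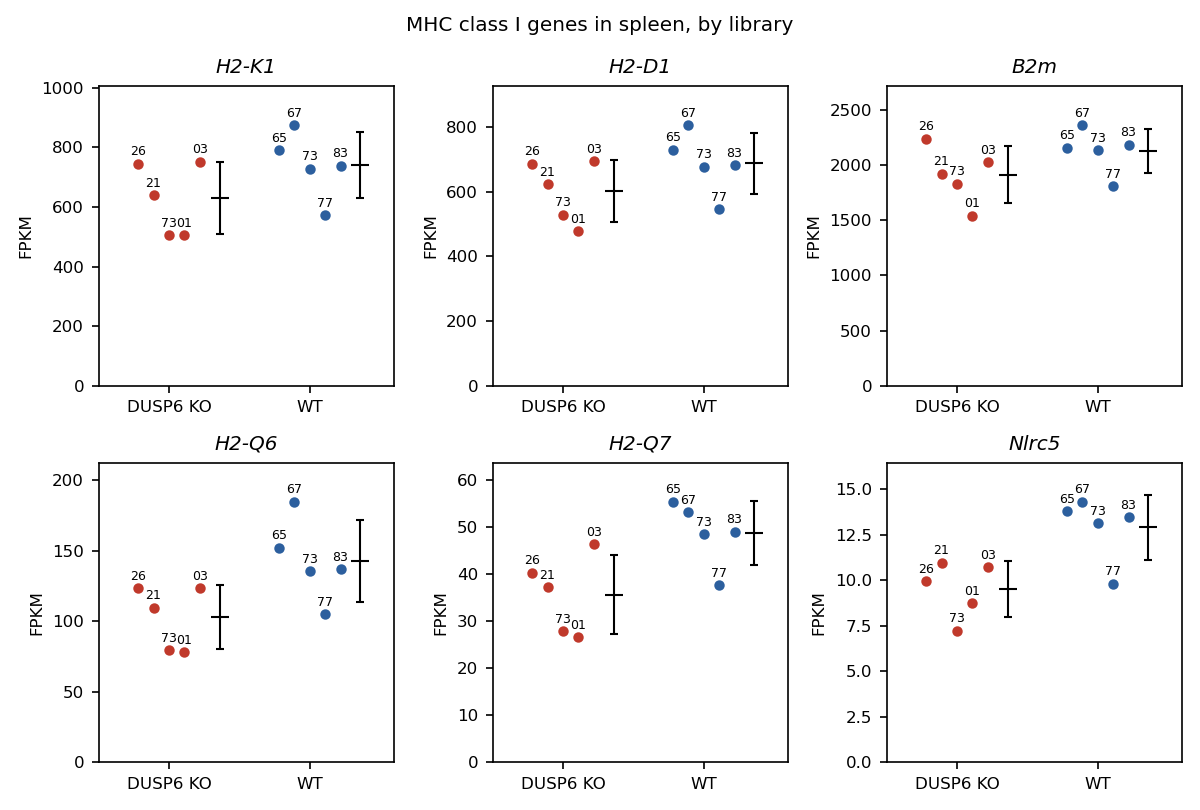
FPKM (y axis, from 0) of 6 class I genes in each library, with replicate numbers beside the points and mean ± SD of the 5 libraries at the right of each group. For H2-Q6, H2-Q7 and Nlrc5, 4 of 5 WT libraries lie above every DUSP6 KO library, and WT replicate 77 does not.

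The light chain and the loading machinery differed less. B2m, the light chain of all class I molecules, was measured at 2239, 1922, 1830, 1540 and 2025 FPKM in the DUSP6 KO libraries and 2156, 2361, 2133, 1806 and 2185 FPKM in the WT libraries. DUSP6 KO replicate 26 exceeded 4 of the 5 WT libraries, and the log2 fold change was -0.16 (95% interval -0.52 to 0.20). The peptide transporter subunit Tap1 was measured at 35.1, 36.8, 27.2, 28.2 and 39.0 FPKM in the DUSP6 KO libraries and 40.6, 46.7, 41.2, 28.1 and 34.7 FPKM in the WT libraries, and its partner Tap2 at 27.1, 29.5, 20.47, 21.8 and 31.0 FPKM in the DUSP6 KO libraries and 27.8, 29.3, 27.8, 22.4 and 27.5 FPKM in the WT libraries. The log2 fold changes were -0.20 (-0.53 to 0.14) for Tap1 and -0.07 (-0.35 to 0.22) for Tap2, and for Tap2 the 2 highest libraries were both DUSP6 KO. Tap1 overlaps the immunoproteasome gene Psmb9 on the opposite strand. Tapasin (Tapbp) was measured at 90.0, 85.3, 74.6, 77.4 and 88.3 FPKM in the DUSP6 KO libraries and 91.8, 93.7, 90.3, 80.2 and 81.1 FPKM in the WT libraries. It varied least of the members above 10 FPKM, with a highest library 1.25 times the lowest, and its log2 fold change was -0.07 (-0.25 to 0.11).

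Among the other nonclassical heavy chains, H2-T23, which encodes Qa-1, the ligand of the CD94-NKG2A receptor of natural killer cells, was measured at 110, 111, 96.8, 86.9 and 115 FPKM in the DUSP6 KO libraries and 115, 134, 123, 97.3 and 116 FPKM in the WT libraries. All 5 DUSP6 KO values were below the WT median, the log2 fold change was -0.17 (-0.41 to 0.07) and the unadjusted limma p was 0.144. H2-Q4, H2-T22, H2-M3, H2-M2, H2-Q10, H2-M5 and H2-Q1 had log2 fold changes of -0.37 to -0.03, none at an unadjusted limma p under 0.05, and H2-Q2, at 0.267 ± 0.101 FPKM (SD, n = 5) in the DUSP6 KO group and 0.240 ± 0.162 FPKM (SD, n = 5) in the WT group, was the only class I member with a value above 0 (0.21). H2-M3 presents formylated peptides of bacteria and mitochondria, and H2-Q10 is a secreted class I molecule known from liver. H2-T24 departed from the other class I genes in its order across libraries: it was highest in DUSP6 KO replicate 73 (47.1 FPKM) and WT replicate 77 (40.7 FPKM), in which most other members were low. The erythroid markers (Alas2, Slc4a1, Epor and Klf1) were also highest in these 2 libraries, at mean log2 levels of 8.55 and 7.93 against 5.69 to 7.71 in the other 8, and their part in the H2-T24 values was not tested. H2-T22, H2-T23 and H2-T24 overlap A930015D03Rik on the opposite strand, and 38.1% of the 100-base windows of H2-T22 also occur in other genes, so their values are uncertain.

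For class II, the groups overlapped for every gene, and 0 of 11 reached an unadjusted p under 0.05. Cd74, the invariant chain, was measured at 4477, 4244, 2497, 3255 and 4225 FPKM in the DUSP6 KO libraries and 4477, 5611, 3923, 2820 and 4006 FPKM in the WT libraries. DUSP6 KO replicate 73 and WT replicate 77 were the 2 lowest and WT replicate 67 the highest, and the log2 fold change was -0.15 (-0.74 to 0.43).

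The classical class II genes encode I-A (H2-Aa and H2-Ab1) and the beta chain of I-E (H2-Eb1). H2-Aa was measured at 967, 989, 634, 766 and 998 FPKM in the DUSP6 KO libraries and 986, 1376, 991, 680 and 1011 FPKM in the WT libraries. H2-Ab1 was measured at 1010, 1052, 665, 767 and 1043 FPKM in the DUSP6 KO libraries and 1060, 1357, 1020, 726 and 1055 FPKM in the WT libraries. H2-Eb1 was measured at 1237, 1290, 789, 951 and 1296 FPKM in the DUSP6 KO libraries and 1257, 1623, 1273, 865 and 1230 FPKM in the WT libraries. In all 3 genes DUSP6 KO replicates 26, 21 and 03 lay near WT replicates 65, 73 and 83, while DUSP6 KO replicates 73 and 01 and WT replicate 77 were low and WT replicate 67 was high. The log2 fold changes were -0.20 for H2-Aa, -0.20 for H2-Ab1 and -0.17 for H2-Eb1, with standard errors of 0.20 to 0.21. The alpha chain gene of I-E is annotated as the pseudogene H2-Ea-ps, as it is inactive in the C57BL/6 haplotype, and lay at 0.103 ± 0.191 FPKM (SD, n = 5) in the DUSP6 KO group and 0.0976 ± 0.218 FPKM (SD, n = 5) in the WT group, so neither group expressed it near the level of H2-Eb1.

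**Figure D3:**
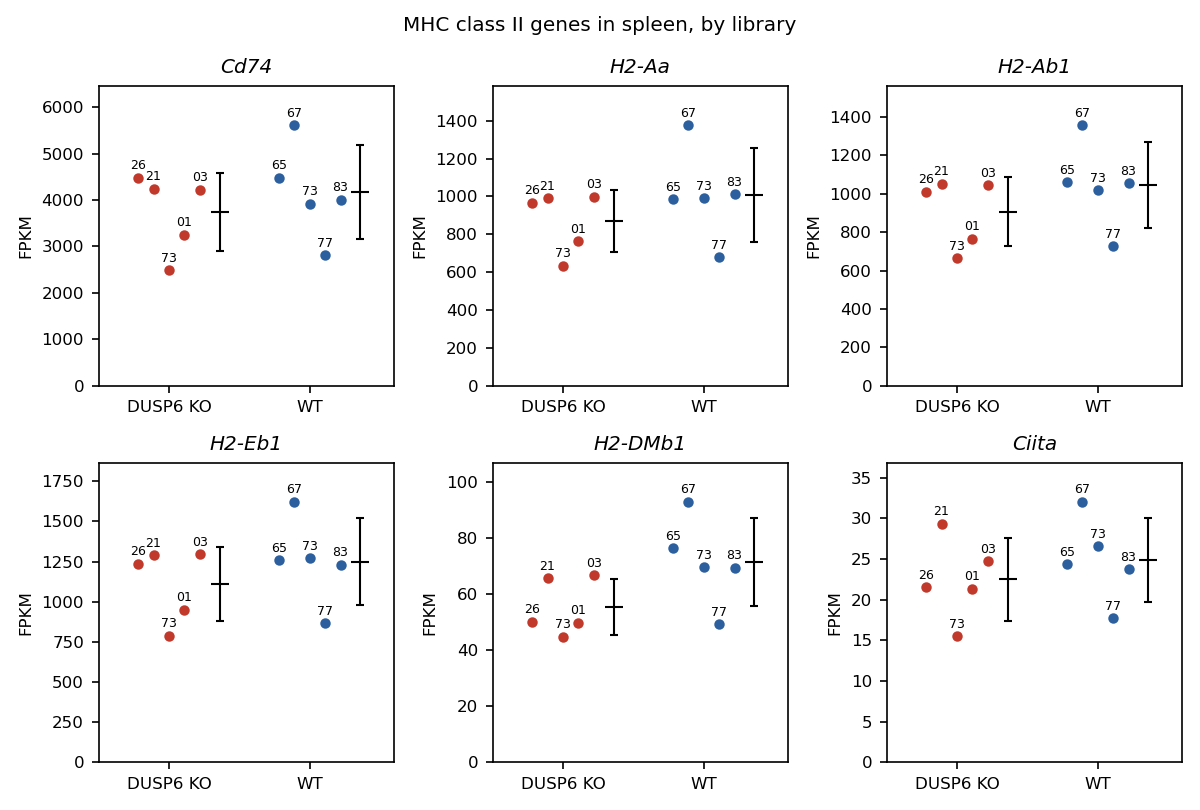
FPKM (y axis, from 0) of 6 class II genes in each library, with replicate numbers beside the points and mean ± SD of the 5 libraries at the right of each group. DUSP6 KO replicate 73 and WT replicate 77 are low and WT replicate 67 is the highest library in all 6 genes.

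The accessory genes followed the same order. H2-DMb1, a beta chain of the peptide exchange factor H2-DM, had the lowest log2 fold change of class II and is described here although it fell outside the rule for named genes, having been chosen after its values were seen. H2-DMb1 (chr17:34153072-34160230, plus strand) was measured at 50.2, 65.8, 44.8, 49.9 and 66.7 FPKM in the DUSP6 KO libraries and 76.4, 93.0, 69.6, 49.4 and 69.4 FPKM in the WT libraries. All 5 DUSP6 KO values were below the WT median and 4 of 5 WT values above the highest DUSP6 KO value, with WT replicate 77 among the DUSP6 KO values. The log2 fold change was -0.36 ± 0.17 (SE), with an unadjusted p of 0.0615 and an adjusted p of 0.921 in limma, and a two-sided exact permutation p of 0.0635. Its neighbour H2-DMb2 was measured at 152, 156, 92.4, 119 and 160 FPKM in the DUSP6 KO libraries and 165, 230, 156, 103 and 172 FPKM in the WT libraries, and its log2 fold change was -0.27 (-0.74 to 0.21). The transcripts share 13.7% of the 100-base windows of H2-DMb1 and 12.9% of those of H2-DMb2.

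Ciita, the class II transactivator, was measured at 21.5, 29.3, 15.5, 21.3 and 24.7 FPKM in the DUSP6 KO libraries and 24.4, 32.0, 26.6, 17.7 and 23.7 FPKM in the WT libraries. Its log2 fold change was -0.15 (-0.56 to 0.26) with an unadjusted limma p of 0.427. The remaining class II members, H2-DMa, H2-Oa, H2-Ob and H2-Eb2, had log2 fold changes of -0.17 to -0.08, and none reached an unadjusted p under 0.05. Nlrc5 and Ciita are related proteins of the NLR family. As a share of Ciita within each library, Nlrc5 ranged from 37.4% to 46.7% in the DUSP6 KO group and from 44.7% to 56.7% in the WT group, and these overlapped.

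Class II levels differed more between mice of a group than between the groups. DUSP6 KO replicates 73 and 01 and WT replicate 77 were the 3 lowest libraries for 11 of 11 class II members, and WT replicate 67 was the highest for 11 of 11. Of the 16 class I members of at least 1 FPKM, the same libraries were among the 3 lowest for 15, 16 and 13, and WT replicate 67 was the highest for 11. These 3 libraries were also the lowest in the 7 B cell markers (Cd79a, Cd79b, Ms4a1, Pax5, Cr2, Fcer2a and Blk), at mean log2 levels of 5.82, 6.46 and 6.04 against 6.56 to 7.16 in the other 7, and WT replicate 67 was the highest. The B cell markers had a log2 fold change below 0 for 7 of 7, with 0 at an unadjusted limma p under 0.05 and a median of -0.18, and their summed level was 623 to 1221 FPKM in DUSP6 KO and 697 to 1576 FPKM in WT. WT replicate 67 also held RNA of the pancreatic genes Prss2 and Cela1, with a summed level of the 4 foreign tissue markers of 3175 FPKM against 9.52 to 52.0 FPKM in the other 9 libraries. Prss2 alone was at 1877 FPKM in WT replicate 67, at 25.0 FPKM in WT replicate 65 and at most 0.296 FPKM in every other library. The part of these markers in the MHC values was not tested by itself, and fits with and without them are given next.

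**Figure D4:**
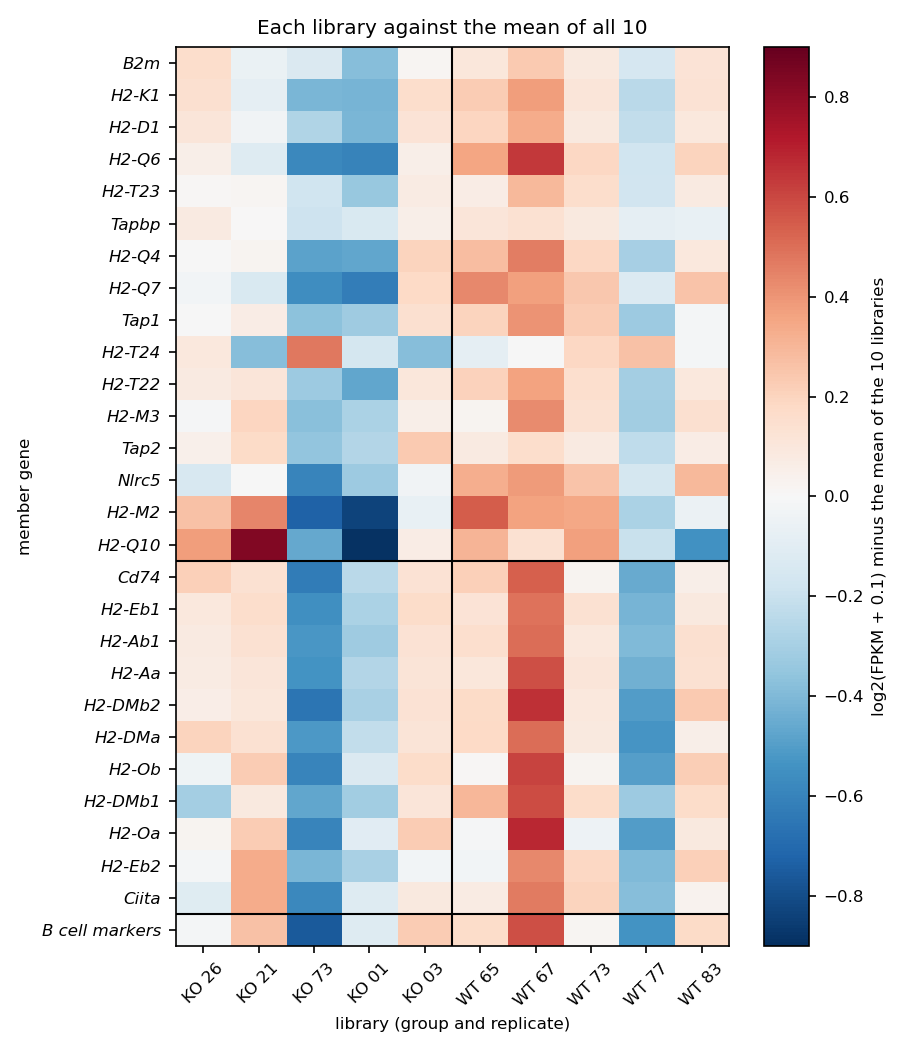
Colour shows log2(FPKM + 0.1) of each library minus the mean of the 10 libraries, for the 27 members of at least 1 FPKM (class I above, class II below) and, in the bottom row, for the mean of the 7 B cell markers. Columns are libraries, and DUSP6 KO replicate 73 and WT replicate 77 are low and WT replicate 67 high in nearly every row, H2-T24 being the main exception.

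With the B cell marker level as a covariate, an alternative added after the data were seen, Nlrc5 had a log2 fold change of -0.35 (unadjusted p 0.000141, adjusted p 0.0721 in limma), H2-Q7 of -0.38, H2-Q6 of -0.38 and H2-DMb1 of -0.25 (unadjusted p 0.0084), and 4 class I and 1 class II members were lower at an unadjusted p under 0.05, against 4.21% of all genes in that fit. The median was -0.12 in class I and -0.05 in class II. A fit without the 3 libraries lowest in B cell markers was also added after the data were seen. In it Nlrc5 (-0.37), H2-Q7 (-0.32) and H2-Q6 (-0.35) were the class I members at an unadjusted limma p under 0.05, and 0 class II members were. Of all genes 2.70% were lower in that fit. The 3 libraries left out were also the lowest for 11 of 11 class II members. WT replicate 77, 1 of the 3, was the only WT library among the DUSP6 KO values of these class I genes. That fit thus left out libraries by levels close to those compared, and the part of B cell content was not tested. Neutrophil markers had lower mean levels in DUSP6 KO, but the groups overlapped for each of them. A log2 fold change below 0 was found for 8 of 8, against 51.0% of all genes, and the median was -1.14. At an unadjusted limma p under 0.05, 6 were lower, against 3.03% of all genes, and 0 passed after adjustment. Their summed level was 546 to 1887 FPKM in DUSP6 KO and 1051 to 4922 FPKM in WT, with the highest value in WT replicate 77. With the neutrophil marker level as a covariate, 10 of 19 class I and 10 of 11 class II members were lower at an unadjusted limma p under 0.05, against 9.51% of all genes, and the medians were -0.42 and -0.54. Because the mean levels of these markers differed between the groups, the contributions of genotype and of neutrophil content cannot be told apart in that fit. Of the 9 macrophage markers, 3 (Marco, Csf1r and Adgre1) were higher in DUSP6 KO at an unadjusted limma p under 0.05, against 2.62% of all genes. The other 6 did not pass, and 0 of the 9 passed after adjustment. A log2 fold change below 0 was found for 3 of the 9, namely Cd5l (-0.50), Vcam1 (-0.11) and Spic (-0.0035). Of the 7 dendritic cell markers 1, Siglech, was higher at that threshold, and of the 6 T cell, 4 erythroid and 4 plasma cell markers 0 passed in either direction.

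Ratios of members within a library, computed after the levels had been seen, show which genes kept step. H2-Ab1 was 98.6% to 108% of H2-Aa in the 10 libraries, although H2-Aa itself differed 2.17-fold between the lowest and the highest library. H2-Aa was 263% to 302% of the B cell gene Cd79b, and H2-D1 was 92.1% to 105% of H2-K1. H2-Q6 was 16.6%, 17.2%, 15.8%, 15.5% and 16.5% of H2-K1 in DUSP6 KO and 19.2%, 21.2%, 18.6%, 18.4% and 18.6% in WT. All 5 DUSP6 KO values were below all 5 WT values, including WT replicate 77, and of the 14 ratios computed this was the only ratio whose groups did not overlap. H2-Q7 was 5.25% to 6.17% of H2-K1 in DUSP6 KO and 6.07% to 6.99% in WT, with an overlap of DUSP6 KO replicate 03 and WT replicate 67. These ratios were picked with the values of H2-Q6 known and carry no test. The share of other gene pairs whose ratio separates the groups was not computed.

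**Figure D5:**
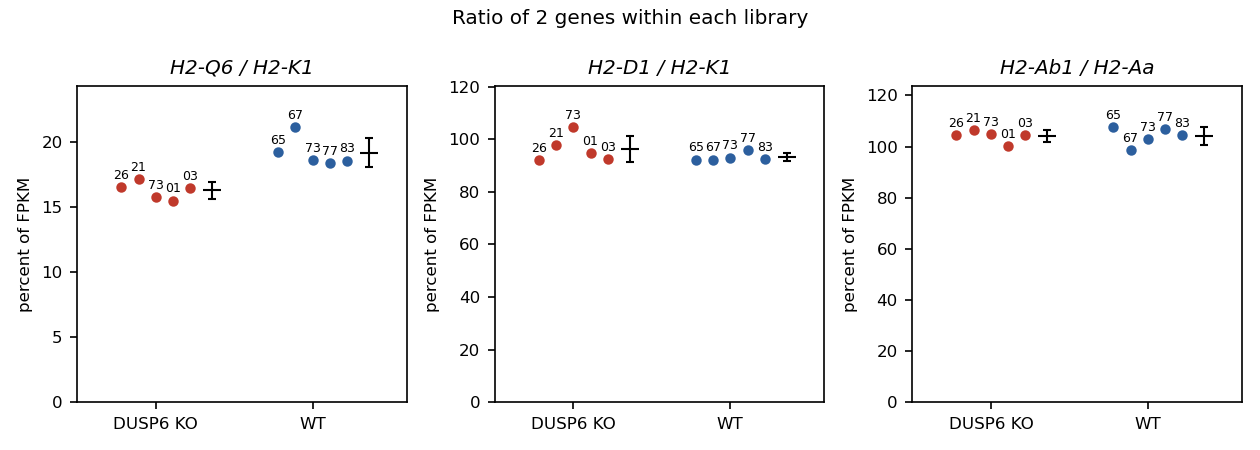
FPKM of 1 gene as a percent of the FPKM of another gene in the same library (y axis, from 0), with replicate numbers beside the points and mean ± SD of the 5 libraries at the right of each group. H2-Q6 against H2-K1 separates the groups (15.5% to 17.2% and 18.4% to 21.2%), whereas H2-D1 against H2-K1 and H2-Ab1 against H2-Aa overlap. The ratios shown were picked after the levels had been seen and carry no test.

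Of the 76 other genes of antigen presentation, interferon-gamma response and costimulation that were listed by role, 71 were tested. Of these, 46 had a log2 fold change below 0, against 51.0% of all genes. At an unadjusted limma p under 0.05, 2 were lower and 2 higher in DUSP6 KO, and 0 passed after adjustment. Over all genes 3.03% were lower and 2.62% higher at that threshold, so the number of partner genes called was near the share of all genes. Gbp2, an interferon-induced GTPase, was lower (15.5 ± 4.68 against 21.97 ± 2.79 FPKM, SD, n = 5 each; log2 fold change -0.54), as was calreticulin (Calr), a chaperone of class I loading (175 ± 11.9 against 202 ± 17.3 FPKM; -0.21). Ide, a peptidase, was higher (14.0 ± 2.33 against 10.2 ± 0.860 FPKM; 0.44), as was Ctsl, an endosomal protease (14.2 ± 2.04 against 11.8 ± 0.711 FPKM; 0.25). The immunoproteasome and its activator (Psmb8, Psmb9, Psmb10, Psme1 and Psme2) had values below 0 for 4 of 5, with 0 at an unadjusted p under 0.05. Of 13 regulators of MHC genes, including Irf1 and the RFX and NF-Y subunits that bind X box and CCAAT, 11 had values below 0 and 0 passed. Of 12 interferon-gamma targets 9 had values below 0, and Gbp2 was the only gene that passed. Cd80 and Cd86, the costimulatory ligands of CD28, had log2 fold changes of -0.11 and 0.02.

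A total of 11 H2-named genes of other biotypes lay outside the rule, and 2 of them, chosen after their values were seen, resembled H2-Q6. H2-Q5 was measured at 21.8, 22.5, 12.2, 19.1 and 29.2 FPKM in the DUSP6 KO libraries and 33.3, 37.9, 31.5, 22.8 and 31.2 FPKM in the WT libraries. Of its DUSP6 KO values 4 of 5 were below the lowest WT value, and its log2 fold change was -0.62, with an unadjusted p of 0.0151 and an adjusted p of 0.747 in limma. H2-K2 was measured at 17.3, 19.96, 9.82, 14.9 and 24.7 FPKM in the DUSP6 KO libraries and 28.4, 33.2, 21.8, 16.2 and 29.1 FPKM in the WT libraries, with a log2 fold change of -0.59, an unadjusted p of 0.0431 and an adjusted p of 0.861 in limma. Of the 100-base windows of H2-Q5, 12.9% also occur in other genes, among them H2-Q7, and of those of H2-K2, 1.98%.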

How the data were processed

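Spleen poly-A RNA of 5 DUSP6 KO mice and 5 WT mice was sequenced by a service provider with paired-end reads, 1 library per mouse. The authors used Hisat2 for alignment and featureCounts (1.5.0-p3 in the submitters' processing notes) for counting, and deposited FPKM values for 54532 genes with gene lengths. Their DESeq2 test on counts was not repeated. The deposited values are FPKM, so limma on them was the main test, with limma voom on recovered reads beside it. The processing notes name a human build, but coordinates of 53462 of the 54409 genes shared with GENCODE M21 (98.3%) were identical to mouse GRCm38, which was used here. Whether counting used the strand is not given in the sources used here. All 10 sample columns were used, and 0 others.

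FPKM multiplied by gene length gave whole reads in every library (100% of values within 0.001 of a read), which set the depths of 14990474 to 19822673 reads. Values on the log2(FPKM + 0.1) scale were fitted with limma (3.58.1, R 4.3.3, trended eBayes). Genes averaging 0.1 FPKM or more entered, 21296 in all, and p-values were adjusted over them by Benjamini-Hochberg; fold changes are on that scale and understate those of low genes. Single members were also tested by a two-sided exact permutation test of the difference of mean log2 values. limma voom on the recovered reads, other pseudocounts, filters and scalings, and fits without each library were alternatives, and 3 more were added after the data were seen. Steps were tested on simulated data. P-values measure the spread between these mice.

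The members and lists were chosen with earlier results of these data known. Values per library are given for members at an unadjusted p under 0.05, for the 5 members of each class with the highest mean FPKM, and for B2m, Cd74, Ciita, Nlrc5, Tap1, Tap2 and Tapbp; partner genes are named at an unadjusted p under 0.05. Of the lists, 3 genes were left out of all values and are not reported here. Promoters came from RefSeq (34 of 41 members matched), and transcripts for the search of shared 100-base windows from GENCODE M21.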

Additional observations from a re-analysis of the deposited data

Results flagged for a closer look

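Among the 5 WT libraries, WT replicate 77 lay apart from the other 4 for 2 members. Tap2, a subunit of the peptide transporter, was at 22.4 FPKM in WT replicate 77 and at 27.5 to 29.3 FPKM in the other WT libraries, and Nlrc5 was at 9.82 FPKM against 13.1 to 14.3 FPKM. In each case the gap to the nearest library, divided by the range of the group, exceeded Dixon's critical value of 0.71 for 5 samples. Over the members tested, 2 of 62 groups of 5 values were picked out in this way, and chance picks out about 1 in 20. WT replicate 77 was also the WT library with the lowest B cell marker level (6.04) and the highest neutrophil marker level (8.06), and the part of these in its Tap2 and Nlrc5 values was not tested.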

How the results depend on the processing

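No paired analysis was possible because the groups share only 1 replicate number (73) and the labels state no pairing between them. Under every alternative 0 class I and 0 class II members passed 0.05 after adjustment in limma. Under the other pseudocounts, filters, scalings and priors and under limma voom, H2-Q6, H2-Q7 and Nlrc5 were the class I members at an unadjusted p under 0.05 and 0 class II members were. Leaving out each library gave 2 to 6 class I and 0 to 2 class II members, 3 to 7 partner genes (7 without DUSP6 KO replicate 26), 494 to 943 lower genes of all, 12 to 32 adjusted genes of all (32 without DUSP6 KO replicate 21), and medians of -0.28 to -0.12 in class I and -0.29 to -0.05 in class II. The 6 class I members came without WT replicate 77, with H2-T23, H2-Q4 and Tap1 added, as did the 2 class II members, H2-DMb1 and H2-DMb2. H2-DMb1 alone passed without DUSP6 KO replicate 21 or 03. Tap2 ranged from -0.13 to 0.015 when a library was left out and was above 0 without DUSP6 KO replicate 73 (0.015), with the B cell covariate (0.0078) and without the 3 libraries lowest in B cell markers (0.054). A minimum of 1 FPKM left 409 lower genes of all, as fewer were tested, and eBayes without trend left 2 partner genes. In the fits that left out a library, the lower genes were 2.32% to 4.43% of all. Partner genes are counted here in either direction among the 71 tested. The share of all genes called in either direction is not given for the alternatives. The B cell covariate gave 1 class II member, 9 partner genes, 36 adjusted genes of all and 896 lower genes of all (4.21%). The neutrophil covariate gave 10 class I and 10 class II members and medians of -0.42 and -0.54. It also gave 25 partner genes and 2025 lower genes of all (9.51%). For these last settings the cause was not tested. With 5 mice a group, the widest interval of a class II member, that of Cd74, reached from -0.74 to 0.43, and these data do not exclude differences inside it.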
